A study of Mus musculus with 8 samples.

Results

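A set of 10 genes that define disease-associated microglia (DAM), Lpl, Fabp5, Itgax, Clec7a, Cd9, Gpnmb, Cst7, Spp1, Igf1 and Ccl6, were followed through single-nucleus RNA sequencing of the mouse brain. The genes were taken by name, and 9 of the 10 had a row among the 32285 genes of the tables. Clec7a was not analysed here. Tissue was the brain hemisphere without cerebellum and olfactory bulb, from C57BL6/J mice at an age of 6 months. Nuclei of 4 genotypes were sequenced, with 2 libraries each: wild type (WT), Cnp-/-, 5xFAD and Cnp-/- 5xFAD. Cnp-/- mice lack the myelin protein CNP constitutively, and have defects of myelin and axons. 5xFAD mice carry transgenes under a neuronal promoter and form amyloid plaques. Cnp-/- 5xFAD mice combine both, whereas WT mice carry neither. The methods do not say for these libraries how many animals each holds, whereas the reporting summary gives pooled animals for the single-cell work in general, so p-values refer to the spread between libraries.

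Microglia are the resident macrophages of the brain. Around amyloid plaques and in damaged myelin they leave the homeostatic state, lower genes such as P2ry12 and Tmem119, and raise a programme for the uptake and breakdown of lipid and debris, which depends in part on the lipid receptor TREM2. The genes described here are widely used readouts of that programme. Lpl (lipoprotein lipase) and Fabp5 (a fatty acid-binding protein) handle lipids, Itgax (the integrin subunit CD11c), Cd9 (a tetraspanin) and Gpnmb (a glycoprotein of lysosomal and phagosomal membranes) are membrane proteins, Cst7 (cystatin F) inhibits lysosomal cysteine proteases, and Spp1 (osteopontin), Igf1 (insulin-like growth factor 1) and Ccl6 (a chemokine) are secreted.

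In this droplet assay each captured transcript carries a unique molecular identifier (UMI), and the deposited values are UMI counts per gene and nucleus. By the authors' annotation, 982 of the 2291 nuclei in the microglial table were homeostatic, 586 belonged to amyloid-DAM and 248 to myelin-DAM. A further 270 carried many myelin transcripts (termed MyTE), and 205 were macrophages. Counts were summed per library and subpopulation, and a sum over at least 20 nuclei is called a profile. Levels are UMI counts scaled to the same total in each profile (CPM). Amyloid-DAM gave 4 profiles, all from 5xFAD and Cnp-/- 5xFAD libraries, and myelin-DAM gave 4, all from Cnp-/- and Cnp-/- 5xFAD libraries. Homeostatic microglia gave 8. Profiles held 36 to 199 nuclei and 47149 to 280351 UMIs in these 3 subpopulations, so that 3 UMIs, taken as the floor of detection, correspond to 63.6 CPM in the smallest myelin-DAM profile. Of 61494 distinct barcodes in all nuclei 454 occurred in more than 1 library, but none of the 2291 microglia and macrophage barcodes did. Cnp itself was counted at 219 to 321 CPM in mature oligodendrocytes of the WT and 5xFAD libraries and at 23.1 to 32.8 CPM in those of the Cnp-/- and Cnp-/- 5xFAD libraries.

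The subpopulation labels were checked against marker lists. The summed level of 14 homeostatic genes was 10667 to 12715 CPM in homeostatic profiles, 7207 to 8279 CPM in amyloid-DAM and 5852 to 7148 CPM in myelin-DAM. The 9 macrophage markers reached 11742 to 14793 CPM in macrophages and at most 458 CPM in homeostatic and DAM profiles. The 8 oligodendrocyte markers summed to 9315 to 12796 CPM in MyTE and to at most 291 CPM in homeostatic and DAM profiles. Summed levels of 6 astrocyte markers were 319 to 854 CPM in homeostatic, 190 to 667 CPM in amyloid-DAM and 263 to 435 CPM in myelin-DAM profiles. In MyTE they were 332 to 1023 CPM, and the source of these transcripts was not tested. MyTE nuclei also had a median of 2761.5 UMIs, against 1159.5 in homeostatic microglia, 1303 in amyloid-DAM and 1208 in myelin-DAM.

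The first question was how the levels of the 9 genes differ between homeostatic microglia and each DAM subpopulation. The authors formed the subpopulations by clustering the same counts, so these differences are descriptions without a test. The paper presents both DAM clusters as high in Trem2, Lpl and Spp1, so the counts below include genes used to describe the clusters. Of the 8 genes with at least 10 UMIs in the profiles compared, 7 were higher in every amyloid-DAM profile than in every homeostatic profile of the same 4 libraries (Lpl, Itgax, Cd9, Gpnmb, Cst7, Igf1 and Ccl6), against 4.28% of all 9627 genes with as many UMIs. None was lower in every profile (4.12% of genes). For myelin-DAM, 6 of 7 genes were higher throughout (Lpl, Itgax, Cd9, Gpnmb, Spp1 and Igf1), against 3.94% of 7973 genes, and none was lower throughout (3.7% of genes). The median log2 ratio was 3.24 for the 8 genes and 0.07 for all genes in amyloid-DAM, and 3.95 for the 7 genes and 0.07 for all genes in myelin-DAM. A gene could reach the minimum of UMIs through the subpopulation in which it is high.

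**Figure D1:**
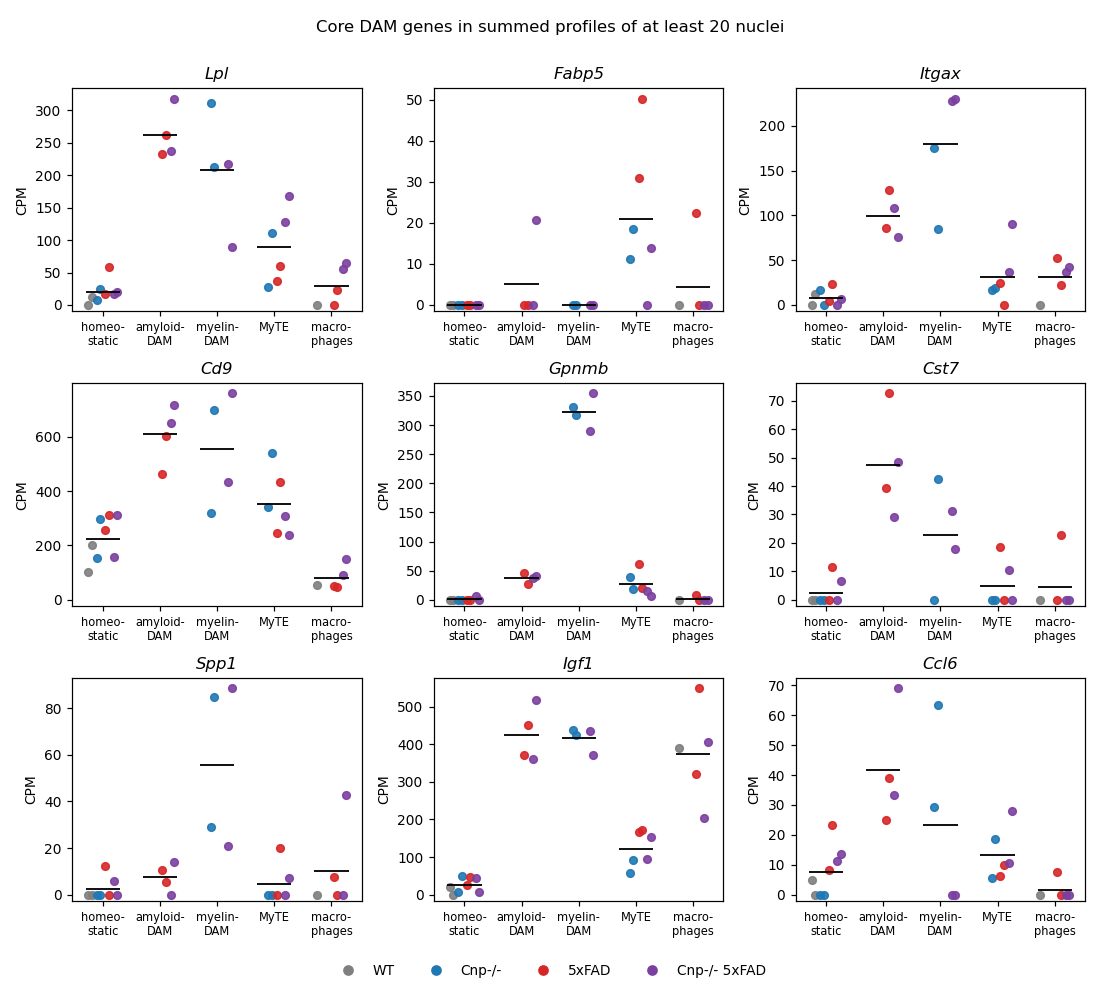
Level in CPM (y axis, linear) of the 9 genes in summed profiles of at least 20 nuclei, by subpopulation (x axis). Each point is 1 library, coloured by genotype, and the line is the mean. Gpnmb stood at 290.0 to 354 CPM in myelin-DAM and at no more than 61.7 CPM in every other profile, whereas Igf1 stood at 361 to 518 CPM in both DAM subpopulations and at 205 to 549 CPM in macrophages.

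Lpl, the lipase that releases fatty acids from lipoproteins, was measured at 232, 262, 237 and 318 CPM in amyloid-DAM of the 5xFAD replicates 1 and 2 and the Cnp-/- 5xFAD replicates 1 and 2. The homeostatic profiles of these libraries held 16.2, 58.0, 17.0 and 20.3 CPM. The lowest amyloid-DAM profile was thus above the highest homeostatic one, and the ratio of the summed counts (215 and 20 UMIs) was 9.46, with a 95% counting interval of 5.98 to 15.8. In myelin-DAM the Cnp-/- replicates had 311 and 212 CPM and the Cnp-/- 5xFAD replicates 218 and 88.6 CPM, in total 13.2 times (6.55 to 30.1) the level of their homeostatic nuclei. The range of the 4 myelin-DAM profiles was wide and overlapped with that of amyloid-DAM (ratio 0.883, 0.662 to 1.16). Intervals cover counting error only.

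Fabp5, which carries fatty acids within the cell, was near the limit of detection. No UMI was found in 982 homeostatic nuclei, which allows up to 2.43 CPM, 3 UMIs were found in amyloid-DAM, all of them in Cnp-/- 5xFAD replicate 2, and 1 in myelin-DAM. Of the 23 Fabp5 UMIs in the table of microglia and macrophages, 16 lay in MyTE nuclei (69.6%). MyTE made up 11.8% of nuclei and 23.4% of all UMIs of that table. Astrocytes (81.1 ± 30.6 CPM, SD, n = 8 libraries) and mature oligodendrocytes (30.8 ± 16.2 CPM) had more Fabp5 than the class annotated as microglia in the table of all cell types (8.07 ± 3.85 CPM), which includes macrophages and nuclei without a subpopulation, and MyTE nuclei carried the oligodendrocyte markers given above. The part of these cells in the Fabp5 counts was not tested.

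Itgax, a subunit of a complement receptor, was found at 85.6, 128, 108 and 76.0 CPM in the 4 amyloid-DAM profiles and at 4.05, 23.2, 0 and 6.75 CPM in homeostatic microglia of the same libraries (84 against 6 UMIs, ratio 12.3, 5.43 to 34.5). Myelin-DAM profiles held 175 and 84.8 CPM in Cnp-/- and 228 and 230.3 CPM in Cnp-/- 5xFAD mice, where homeostatic nuclei had 3 UMIs in all (ratio 33.2, 10.8 to 166). In 3 of 4 myelin-DAM profiles Itgax was above every amyloid-DAM profile, but Cnp-/- replicate 2, with 4 UMIs, lay among them. Without that library Itgax, too, was higher in every myelin-DAM profile, so that 3 genes in place of 2 separated both subpopulations. More genes can separate when fewer profiles are compared, and the share of all genes was not computed without that library. Within the Cnp-/- 5xFAD libraries, where both subpopulations came from the same tissue, myelin-DAM had 2.11 times (1.14 to 3.87) and 3.03 times (1.25 to 7.47) the Itgax level of amyloid-DAM.

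Cd9, a tetraspanin of many cell types, had the smallest ratio among the genes that were higher in every profile. It was counted at 464, 603, 652 and 718 CPM in amyloid-DAM and at 255, 313, 159 and 311 CPM in homeostatic microglia of the same libraries, a ratio of 2.30 (1.94 to 2.73). In myelin-DAM it was 2.25 times (1.76 to 2.89) the homeostatic level, with profiles between 321 and 762 CPM against 154 to 311 CPM, which overlapped once nuclei were thinned to 715 UMIs. Cd9 was also the one gene of the 9 that was common in homeostatic nuclei, 23.2% of which had a UMI. Mature oligodendrocytes (177 ± 42.7 CPM, n = 8) and oligodendrocyte precursors (145 ± 33.6 CPM) express it as well.

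Gpnmb showed the largest ratio between the DAM subpopulations. Its level in myelin-DAM was 331 and 318 CPM in the Cnp-/- and 290.0 and 354 CPM in the Cnp-/- 5xFAD replicates. In amyloid-DAM it was 46.4 and 27.9 CPM in the 5xFAD and 37.4 and 41.4 CPM in the Cnp-/- 5xFAD replicates, and across all 8 homeostatic profiles a single UMI was found. The ratio of myelin-DAM to amyloid-DAM was 8.20 (97 against 33 UMIs, 5.47 to 12.6) and was close to this value within each Cnp-/- 5xFAD library (7.76, 3.56 to 18.7, and 8.55, 3.31 to 26.0). Against 1 homeostatic UMI, the ratios were 29.0 (4.86 to 1182) for amyloid-DAM and 169 (29.7 to 6756) for myelin-DAM.

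The Gpnmb counts came from many nuclei of each of these libraries. At least 1 UMI was found in 21.7%, 22.2%, 19.4% and 18.4% of myelin-DAM nuclei in Cnp-/- replicates 1 and 2 and Cnp-/- 5xFAD replicates 1 and 2, and the most in 1 nucleus was 6 UMIs. Over all libraries 20.6% of myelin-DAM nuclei (95% Wilson interval 16.0 to 26.0), 3.75% of amyloid-DAM nuclei (2.49 to 5.62) and 0.102% of homeostatic nuclei (0.018 to 0.575) had Gpnmb. In mature oligodendrocytes, which should lack it and had a similar median depth of 1515 UMIs, the share was 0.09%. After nuclei were thinned to 744 UMIs, leaving out shallower ones, the shares were 17.5%, 2.84% and 0%. Some of the few myelin-DAM nuclei outside the Cnp-/- background also carried Gpnmb. In the 5xFAD libraries 2 of 12 such nuclei held 8 UMIs, 6 of them in a single nucleus. The only WT nucleus so labelled held 6 UMIs.

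Cst7, the protease inhibitor cystatin F, was counted at 39.2, 72.6, 29.1 and 48.3 CPM in amyloid-DAM and at 0, 11.6, 0 and 6.75 CPM in homeostatic microglia of the same libraries (38 against 3 UMIs, ratio 11.1, 3.54 to 56.5). Myelin-DAM had only 6 UMIs, with none in Cnp-/- replicate 1, and its profiles (0 to 42.4 CPM) overlapped with those of amyloid-DAM. The ratio of myelin-DAM to amyloid-DAM was 0.441 with an interval of 0.152 to 1.05, so a difference was not detectable at this depth.

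Spp1, the secreted phosphoprotein osteopontin, was rare in every subpopulation. Myelin-DAM profiles held 3, 4, 2 and 5 UMIs (29.2, 84.8, 20.7 and 88.6 CPM), amyloid-DAM profiles 3, 1, 0 and 2 UMIs (10.7, 5.58, 0 and 13.8 CPM). All 4 myelin-DAM profiles were above all amyloid-DAM profiles (ratio 6.51, 2.35 to 20.7), although the lowest rested on 2 UMIs and lay below the floor of detection. Spp1 in amyloid-DAM overlapped with homeostatic microglia (6 and 4 UMIs). The mean over the 4 myelin-DAM profiles was 55.8 ± 35.8 CPM, and pericytes of the 8 libraries had 53.0 ± 78.5 CPM. The pericyte value rested on 12 UMIs, with a median of 9.61 CPM and 217 CPM in the highest library.

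Igf1, a growth factor, had a ratio near 1 between the DAM subpopulations: 371, 452, 361 and 518 CPM in amyloid-DAM and 438, 424, 435 and 372 CPM in myelin-DAM (ratio 1.03, 0.834 to 1.26). Homeostatic profiles of the 8 libraries lay between 0 and 49.5 CPM. The ratio to homeostatic nuclei was 13.3 (8.71 to 21.2) for amyloid-DAM and 16.0 (9.17 to 30.0) for myelin-DAM. Macrophages also held Igf1, at 374 ± 126 CPM (n = 5 profiles), and 17.3% of all Igf1 UMIs of the table were theirs.

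Ccl6, a chemokine, was counted at 25.0, 39.1, 33.2 and 69.1 CPM in amyloid-DAM and at 8.10, 23.2, 11.3 and 13.5 CPM in homeostatic microglia (32 against 10 UMIs, ratio 2.82, 1.35 to 6.42). In myelin-DAM the 3 UMIs in each Cnp-/- library (29.2 and 63.6 CPM) stood against none in both Cnp-/- 5xFAD libraries. Ccl6 no longer stood apart in every amyloid-DAM profile when nuclei were thinned to 733 UMIs or averaged per nucleus. Profiles of myelin-DAM overlapped both with homeostatic microglia and with amyloid-DAM.

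**Figure D2:**
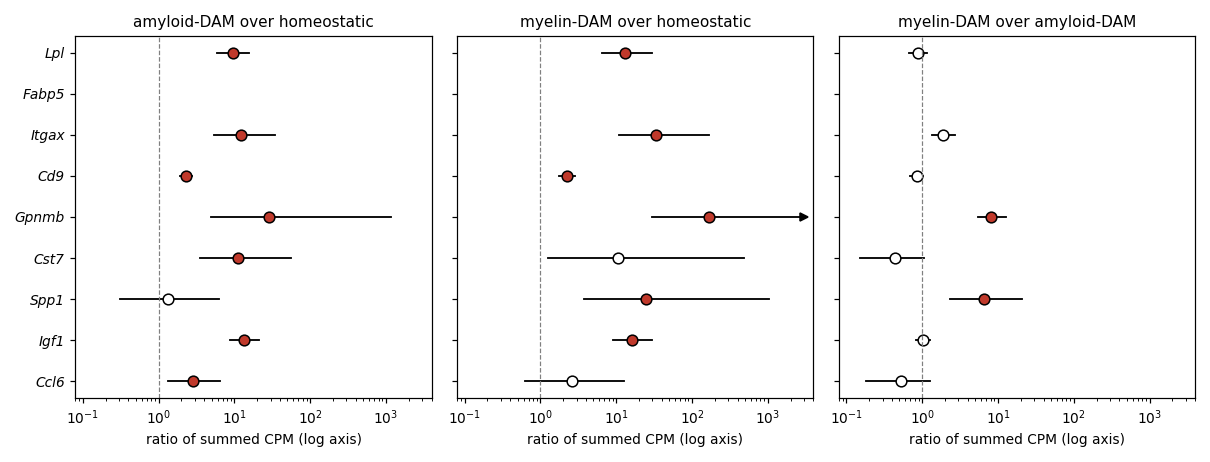
Ratio of summed CPM between subpopulations (x axis, log scale) for each gene, with 95% exact counting intervals as lines and an arrow where an interval runs off the axis. Filled points mark genes with every profile of the first subpopulation above every profile of the second, which include Gpnmb at 8.20 and Spp1 at 6.51 in myelin-DAM over amyloid-DAM; Fabp5 had too few UMIs for a point.

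Set directly against each other, myelin-DAM was higher than amyloid-DAM in every profile for 2 of 8 genes, Gpnmb and Spp1, against 2.83% of 8979 genes, and lower in every profile for none, against 3.47% of genes. The median log2 ratio was -0.06 for the 8 genes and 0.00 for all genes. Both Cnp-/- 5xFAD libraries gave a profile to each side. With profiles of only 5 nuclei admitted, 1 gene (Gpnmb) remained higher throughout, and with nuclei thinned to 734 UMIs Spp1 was also lost. The same admission of small profiles reduced the genes higher throughout from 7 to 2 for amyloid-DAM and from 6 to 3 for myelin-DAM over homeostatic microglia, since the added profiles of 5 to 14 nuclei held 0 UMIs for several genes.

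**Figure D3:**
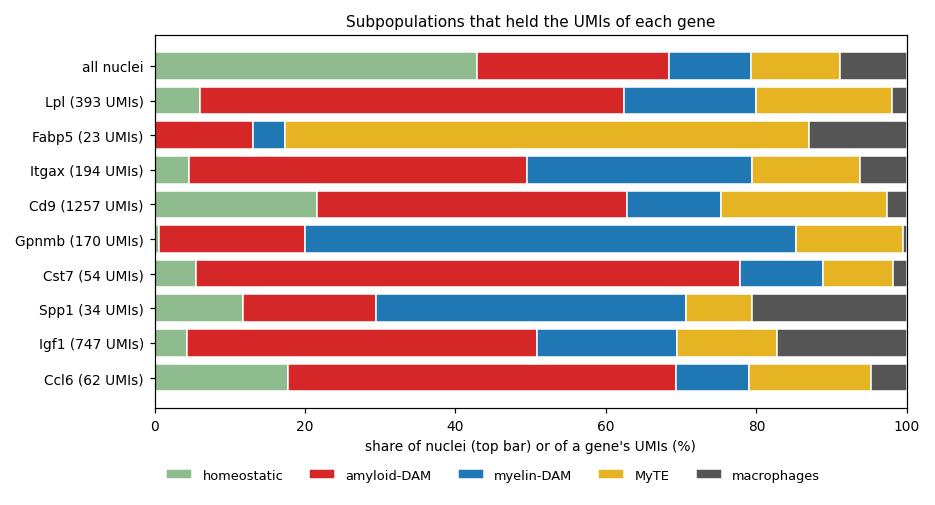
Share of each gene's UMIs held by each subpopulation of the microglia and macrophage table (x axis, %), with the share of nuclei in the top bar. Amyloid-DAM, with 25.6% of nuclei and 23.6% of all UMIs, held 72.2% of Cst7 and 56.2% of Lpl UMIs. Myelin-DAM, with 10.8% of nuclei and 8.62% of all UMIs, held 65.3% of Gpnmb UMIs. MyTE, with 11.8% of nuclei and 23.4% of all UMIs, held 69.6% of Fabp5 UMIs.

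Most of the summed counts of the 9 genes came from DAM nuclei in mutant mice. In the 5xFAD libraries 68.0% and 65.4% of their UMIs lay in amyloid-DAM or myelin-DAM nuclei, which made up 43.4% and 42.7% of microglia. The corresponding values were 62.5% and 58.0% of UMIs in 37.0% and 32.8% of microglia for Cnp-/-, and 76.5% and 70.6% of UMIs in 55.3% and 45.9% of microglia for Cnp-/- 5xFAD. In the WT libraries 6 of 39 UMIs and 0 of 23 UMIs came from DAM nuclei, of which WT had only 2. The sum does not hold for every gene. In the Cnp-/- libraries DAM nuclei held 43 of 123 and 42 of 95 Cd9 UMIs, and MyTE nuclei held 61 and 29. Fabp5 lay mostly in MyTE nuclei, as given above.

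Lpl had a UMI in 22.2% of amyloid-DAM, 14.9% of myelin-DAM and 1.93% of homeostatic nuclei, Igf1 in 31.9%, 32.7% and 2.75%, and Itgax in 11.4%, 18.5% and 0.916%. In mature oligodendrocytes, at a median of 1515 UMIs, Lpl, Itgax, Cst7, Spp1, Gpnmb, Igf1 and Ccl6 had a UMI in at most 0.09% of nuclei. Thinned to 744 UMIs, the shares in the same order were 14.4%, 11.4% and 1.03% for Lpl, 20.1%, 24.2% and 2.18% for Igf1 and 6.25%, 11.8% and 0.689% for Itgax.

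Several of the genes were also found together in single nuclei. At least 2 of the 9 genes had a UMI in 39.8% of amyloid-DAM nuclei (35.9 to 43.8) and 38.3% of myelin-DAM nuclei (32.5 to 44.5), but in 2.95% of homeostatic nuclei (2.06 to 4.21). The highest number was 7 genes, in a myelin-DAM nucleus of a Cnp-/- mouse. Thinned to 744 UMIs, the shares were 20.1%, 27.0% and 1.38%. By library the share was 32.6% and 46.5% of amyloid-DAM nuclei in 5xFAD and 42.7% and 44.6% in Cnp-/- 5xFAD mice, and 36.1% and 50.0% of myelin-DAM nuclei in Cnp-/- and 40.3% and 36.7% in Cnp-/- 5xFAD mice. Within each DAM subpopulation the libraries of the genotypes overlapped. MyTE nuclei, at 25.2% before thinning, had 7.49% after it.

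**Figure D4:**
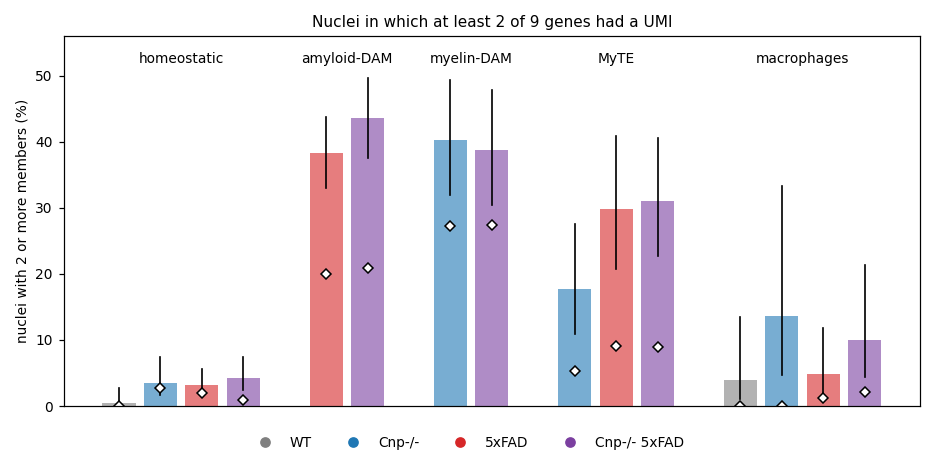
Share of nuclei with a UMI of at least 2 of the 9 genes (y axis, %), by subpopulation and genotype. Bars are all nuclei of a genotype, pooled over libraries, with 95% Wilson intervals for counting error, and diamonds are nuclei thinned to 744 UMIs. Both DAM subpopulations stood at 38.3 to 43.5% and homeostatic microglia at 0.493 to 4.23%.

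The second question was whether the genes differ between genotypes when all microglia of a library are summed without macrophages. Igf1 and Lpl rose in 5xFAD and in Cnp-/- mice over WT. In sums over microglia, more DAM nuclei and more RNA per nucleus cannot be told apart. The libraries held 168 and 51 microglia in WT, 262 and 125 in Cnp-/-, 435 and 314 in 5xFAD and 380 and 351 in Cnp-/- 5xFAD mice, with 88299 to 702785 UMIs. Of the 9 genes, 6 (Lpl, Itgax, Cd9, Gpnmb, Igf1 and Ccl6) passed edgeR's filter on low counts and were tested with 8185 genes in 1 model of 8 libraries by the quasi-likelihood test with Benjamini-Hochberg adjustment, at a threshold of 0.05. A gene may have passed through the mutant libraries alone.

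Igf1 was counted at 16.4 and 0 CPM in the WT, 206 and 241 CPM in the 5xFAD, 132 and 159 CPM in the Cnp-/- and 221 and 242 CPM in the Cnp-/- 5xFAD libraries. All 6 mutant libraries were above both WT libraries, and the share of all genes with this order was not computed. The log2 fold change was 4.21 ± 0.50 (SE) for 5xFAD (edgeR adjusted p = 0.00565) and 3.61 ± 0.54 for Cnp-/- (edgeR adjusted p = 0.0125). With macrophages included, which contained 22 Igf1 UMIs in WT replicate 1, the log2 fold changes were 2.14 and 1.47 and neither passed (edgeR adjusted p = 0.205 and 0.336).

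Lpl was counted at 0 and 11.3 CPM in WT, 108 and 139 CPM in 5xFAD, 104 and 95.5 CPM in Cnp-/- and 149 and 158 CPM in Cnp-/- 5xFAD libraries. Both single mutants thus lay above WT, which held 1 Lpl UMI in 219 microglia, and the ratio of summed counts was 40.0 (7.06 to 1592) for 5xFAD and 33.6 (5.82 to 1350) for Cnp-/-. On the log2 scale the fitted change was 5.20 ± 0.78 (edgeR adjusted p = 0.0145) for 5xFAD and 4.94 ± 0.81 (edgeR adjusted p = 0.0175) for Cnp-/-. Without WT replicate 1, which leaves the 51 microglia of replicate 2 as WT, neither gene passed: the edgeR adjusted p was 0.0523 and 0.0541 for Igf1 and 0.2002 and 0.190 for Lpl in 5xFAD and Cnp-/-. Fitted changes against so few WT UMIs are imprecise: the log2 values then rose to 9.59 and 8.98 for Igf1, whose WT UMIs all lay in replicate 1, and were 3.49 and 3.23 for Lpl, while without WT replicate 2 those of Lpl were 8.81 and 8.54. In 5xFAD, Lpl also failed without 5xFAD replicate 2 (edgeR adjusted p = 0.0707) and with 51 nuclei drawn per library (log2 fold change 4.06, edgeR adjusted p = 0.0764). In Cnp-/-, it also failed without Cnp-/- replicate 1 (edgeR adjusted p = 0.0640) and without MyTE nuclei (log2 fold change 4.99, edgeR adjusted p = 0.0598).

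Thus 2 of 6 tested genes passed in 5xFAD against WT, where 0.464% of all genes were called, all of them higher, and 2 of 6 in Cnp-/- against WT, where 1.92% of genes were called (1.66% higher and 0.257% lower). These comparisons share the WT libraries. Cd9 was counted at 115 and 227 CPM in WT, 340 and 455 CPM in 5xFAD, 290.0 and 504 CPM in Cnp-/- and 406 and 461 CPM in Cnp-/- 5xFAD mice. Its log2 fold changes of 1.39 ± 0.36 in 5xFAD and 1.38 ± 0.37 in Cnp-/- did not pass (edgeR adjusted p = 0.159 and 0.102). The mutant libraries did not overlap with WT, but how many of all genes had that order was not computed. DESeq2 (adjusted p = 0.0126 and 0.00770) and edgeR without a filter on low counts called Cd9 in both single mutants. These settings also called more of all genes: 127 and 280 by DESeq2 and 236 and 396 without a filter, against 38 and 157. In Cnp-/-, Cd9 was also called with replicate number as a block (edgeR adjusted p = 0.0421) and with macrophages included (edgeR adjusted p = 0.0471). MyTE nuclei held 61 of 123 and 29 of 95 Cd9 UMIs in the Cnp-/- libraries. They held 40 of 236 and 43 of 209 in 5xFAD and 7 of 28 and 4 of 20 in WT libraries. Summed oligodendrocyte markers were 1370 to 1639 CPM in WT and 2465 to 5461 CPM in the mutant libraries. The part of MyTE nuclei and of oligodendrocyte transcripts in the Cd9 values was not tested.

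Itgax had 1 UMI in the WT libraries, 57 in 5xFAD, 31 in Cnp-/- and 93 in Cnp-/- 5xFAD mice, and with log2 fold changes of 3.90 ± 1.05 and 3.83 ± 1.08 in the single mutants it did not pass the threshold (edgeR adjusted p = 0.164 and 0.105). Over the alternatives these values ranged from 2.23 to 7.54 and from 2.17 to 7.48, the extremes being without 1 or the other WT library, and without a filter on low counts Itgax was called in both (edgeR adjusted p = 0.0299 and 0.0374). Ccl6 had 1, 22, 8 and 28 UMIs in the same order and did not pass either. Cst7, Spp1 and Fabp5 were too low for the test. Cst7 had no UMI in 219 WT microglia, 14 and 15 in the 5xFAD, 1 and 2 in the Cnp-/- and 12 and 9 in the Cnp-/- 5xFAD libraries. For 5xFAD over WT the exact 95% interval of the ratio of summed counts began at 2.12, for counting error alone, and spread between libraries was not tested. Spp1 had 0 UMIs in WT and 7 to 11 in each mutant genotype.

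Gpnmb ran in another order. Its levels were highest in Cnp-/- microglia (96.7 and 84.9 CPM), followed by Cnp-/- 5xFAD (58.3 and 54.8 CPM), 5xFAD (41.7 and 19.6 CPM) and WT (24.6 and 0 CPM). Libraries of neighbouring genotypes did not overlap except 5xFAD and WT, and the share of all genes with such an order was not computed. The 6 UMIs of WT replicate 1 all came from the single WT myelin-DAM nucleus. The log2 fold change was 2.46 ± 0.75 for Cnp-/- against WT (edgeR adjusted p = 0.147) and 0.90 ± 0.79 for 5xFAD against WT (edgeR adjusted p = 0.778). Over the alternatives these values ranged from 1.92 to 8.34 and from 0.25 to 6.78, the highest without WT replicate 1. The Cnp-/- 5xFAD mice differed from 5xFAD mice by 0.86 ± 0.57 and from Cnp-/- mice by -0.71 ± 0.56, and neither value passed.

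**Figure D5:**
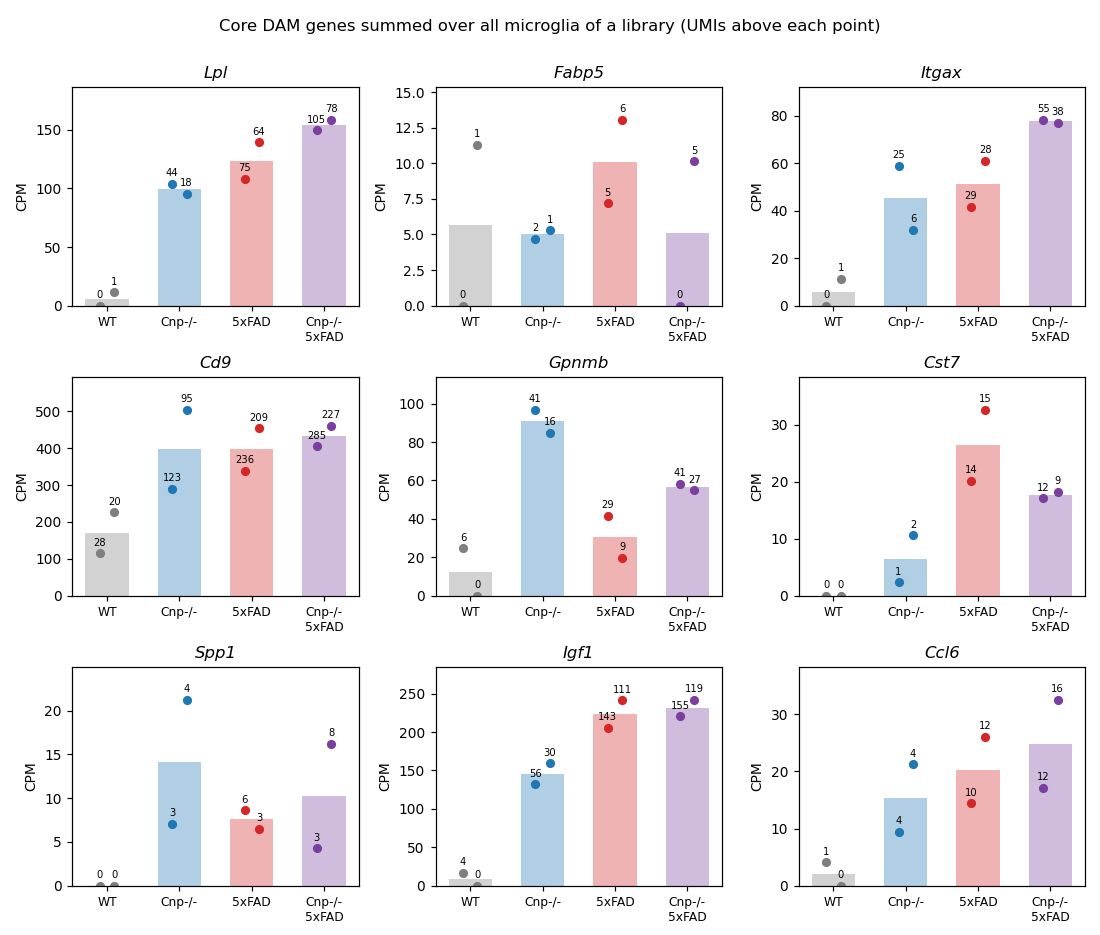
Level in CPM (y axis, linear from 0) of the 9 genes summed over all microglia of a library, by genotype (x axis). Points are the 2 libraries with their UMIs printed above, and bars are means. WT libraries held 0 and 1 UMIs of Lpl and 4 and 0 UMIs of Igf1, against 18 to 105 and 30 to 155 in the mutant libraries.

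The third question was whether the combination of both mutations changed the genes beyond each single one. None of the 6 tested genes passed in Cnp-/- 5xFAD against 5xFAD or against Cnp-/- microglia by edgeR or by DESeq2, and edgeR called 0 of 8185 genes in both comparisons (DESeq2 called 7 and 22; 246 and 476 genes had an unadjusted p under 0.05 by edgeR). Against 5xFAD, Igf1 differed by 0.06 (95% interval -0.53 to 0.65), Lpl by 0.33 (-0.41 to 1.08), Cd9 by 0.14 (-0.47 to 0.75) and Itgax by 0.62 (-0.54 to 1.78) on the log2 scale. Against Cnp-/-, Igf1 differed by 0.66 (0.02 to 1.31), with an unadjusted p under 0.05 but an edgeR adjusted p of 0.837, and Lpl by 0.59 (-0.20 to 1.39).

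In the interaction, which asks whether 5xFAD acted differently in Cnp-/- than in Cnp wild-type mice, all 6 genes had negative values, from -1.24 ± 0.46 for Cd9 to -4.60 ± 0.94 for Lpl, and none passed. Igf1 came closest, at -3.55 ± 0.62 (edgeR adjusted p = 0.0972), and DESeq2 called it (adjusted p = 0.00748). Over all genes edgeR called 4 (0.0489%) in the interaction, whereas DESeq2 called 56. At an unadjusted p under 0.05 there were 4 of the 6 genes, beside 8.71% of all genes. The values rest on 0 to 28 UMIs per gene in each WT library and moved with the alternatives, from -8.21 to -2.89 for Lpl, from -8.92 to -1.503 for Igf1 and from -7.48 to -0.94 for Gpnmb. In CPM, Igf1 rose from 8.19 to 224 on the Cnp wild-type background and from 146 to 231 on the Cnp-/- background.

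Within single subpopulations none of the genes was called between genotypes. The labels came from clustering the same counts, so nuclei with many DAM transcripts were placed in the DAM subpopulations. A change that moves nuclei to another label is therefore outside these comparisons. In homeostatic microglia Cd9 alone passed the filter, among 4566 genes. It was counted at 102 and 203 CPM in WT, 255 and 313 CPM in 5xFAD, 154 and 297 CPM in Cnp-/- and 159 and 311 CPM in Cnp-/- 5xFAD libraries. The 5xFAD libraries lay above both WT libraries, with a ratio of summed counts of 2.15 (1.48 to 3.20), whereas the Cnp-/- and Cnp-/- 5xFAD libraries overlapped with WT and with each other. The 5xFAD effect was tested as the mean of its effects on the Cnp wild-type and Cnp-/- backgrounds, and the Cnp effect likewise over both 5xFAD backgrounds. Neither the 5xFAD effect (0.56 ± 0.32, edgeR adjusted p = 0.939) nor the Cnp effect (0.19 ± 0.32, edgeR adjusted p = 0.986) passed, against 0.0657% and 0.11% of genes called (for Cnp 0.0657% higher and 0.0438% lower). At an unadjusted p under 0.05 there were 271 and 246 genes, without Cd9, and DESeq2 did not call Cd9 either. The other 8 genes together had 5 and 2 UMIs in homeostatic WT nuclei (24.2 and 25.3 CPM), 4 and 6 in Cnp-/- (32.4 and 74.3 CPM), 16 and 28 in 5xFAD (64.8 and 162 CPM) and 15 and 8 in Cnp-/- 5xFAD (85.0 and 54.0 CPM). Every mutant library lay above both WT libraries in this sum. The lowest of them, Cnp-/- replicate 1 with 4 UMIs, stood against 2 UMIs in WT replicate 2, a gap of few UMIs. This order was not tested, and the share of all genes with such an order was not computed.

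In amyloid-DAM, Cnp-/- 5xFAD mice were compared with 5xFAD mice, and in myelin-DAM with Cnp-/- mice, in 1 edgeR model of 8 DAM profiles and 3919 genes. The profiles come from 6 libraries, since each Cnp-/- 5xFAD library gave 1 of each kind, and the model took all 8 as independent. Lpl, Itgax, Spp1, Gpnmb, Cd9 and Igf1 passed the filter, and 0 of these 6 were called in either comparison by edgeR or DESeq2, as were 0 of all genes by edgeR (118 and 242 genes, but none of the 6, had an unadjusted p under 0.05; DESeq2 called 2 and 3 genes). In amyloid-DAM, Igf1 differed by 0.08 (-0.39 to 0.55), Gpnmb by 0.02 ± 0.47 (with an upper bound of 1.04) and Lpl by 0.15 (-0.49 to 0.80). In myelin-DAM, Gpnmb differed by -0.03 (-0.76 to 0.70), Igf1 by -0.07 (-0.70 to 0.55) and Lpl by -0.71 (-1.63 to 0.21). Itgax differed there by 0.69 (-0.29 to 1.67), and by 0.37 to 1.44 over the alternatives. Without Cnp-/- 5xFAD replicate 1 the Lpl value was -1.66 and without replicate 2 it was -0.30, and it was not called in any alternative. The log2 ratio of 3.04 that separates the DAM subpopulations for Gpnmb lay above the upper bound of both Gpnmb intervals. The subpopulations were formed from the same counts, so nuclei with much Gpnmb may have been labelled myelin-DAM. The intervals therefore cannot decide whether Gpnmb changed by that much between genotypes.

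A wider list of 40 DAM genes without the 10 above gives the surroundings of these results. Of the 35 that were tested in all microglia, 4 rose in 5xFAD (Ank, Cadm1, Lilrb4a and Csf1) and 8 in Cnp-/- mice (Ank, Lilrb4a, Cadm1, Cybb, Csf1, Apoe, Myo5a and Ccl4) over WT, and none fell, where 0.464% and 1.92% of all genes were called. Their median log2 fold change was 1.17 in 5xFAD and 1.44 in Cnp-/- mice, beside 0.06 and 0.04 for all genes. Csf1, the growth factor for microglia, was counted at 0 and 11.3 CPM in WT, 141 and 146 CPM in 5xFAD and 89.6 and 63.7 CPM in Cnp-/- libraries, with log2 fold changes of 5.42 ± 0.78 (edgeR adjusted p = 0.0123) and 4.59 ± 0.86 (edgeR adjusted p = 0.0245). Apoe, the lipid carrier, was counted at 107 and 136 CPM in WT and 429 and 361 CPM in Cnp-/- libraries, a change of 1.82 ± 0.36 (edgeR adjusted p = 0.0335). With macrophages included the value for Apoe was -0.95 (edgeR adjusted p = 0.564). Without WT replicate 1, Ank alone of these genes was called in 5xFAD mice and Ank and Lilrb4a in Cnp-/- mice, with adjusted p up to 0.288 for the rest. Over the alternatives the log2 fold change of Csf1 ranged from 3.72 to 9.03 in 5xFAD and from 2.89 to 8.20 in Cnp-/- mice, the extremes being without 1 or the other WT library. Csf1, Apoe, Cadm1, Myo5a, Ccl4 and Cybb were lost without Cnp-/- replicate 1 (adjusted p = 0.0810 to 0.188), Csf1 in 5xFAD without 5xFAD replicate 2 (adjusted p = 0.0531), and Apoe, Myo5a, Ccl4 and Cybb without WT replicate 2 (adjusted p = 0.0593 to 0.0968). Myo5a and Ccl4 were also lost without further single libraries (adjusted p = 0.0513 to 0.0839). Without MyTE nuclei the same 6 genes were not called in Cnp-/- mice (adjusted p = 0.0517 to 0.168) at log2 fold changes close to those with them, such as 4.29 for Csf1, 1.04 for Cadm1 and 2.16 for Apoe. With 51 nuclei drawn per library, Csf1 was not called in 5xFAD (edgeR adjusted p = 0.0554) or Cnp-/- mice (0.211). Cadm1 (0.0909) and Myo5a (0.168) were then not called in Cnp-/- mice either.

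Cybb, a subunit of the phagocyte NADPH oxidase, was found with 1 UMI in WT against 57 in Cnp-/- microglia (log2 fold change 4.89 ± 0.91, edgeR adjusted p = 0.0234). Lilrb4a, an inhibitory receptor, rose by 4.00 ± 0.53 in 5xFAD and 4.14 ± 0.54 in Cnp-/- mice on the log2 scale (edgeR adjusted p = 0.0102 and 0.00713). Over the alternatives these values ranged from 0.86 to 8.37 for Cybb and from 1.23 to 9.39 and 1.197 to 9.51 for Lilrb4a, lowest with macrophages included. There Cybb (edgeR adjusted p = 0.537), Myo5a (edgeR adjusted p = 0.780) and Lilrb4a (edgeR adjusted p = 0.274 and 0.202) were not called. Between Cnp-/- 5xFAD mice and either single mutant none of the 35 genes was called by edgeR. Ank came closest, at 1.40 (1.00 to 1.79) over Cnp-/- mice on the log2 scale (edgeR adjusted p = 0.0516). Libraries of these genotypes did not overlap, an order whose share among all genes was not computed. By subpopulation, 20 of the 37 genes with enough UMIs were higher in every amyloid-DAM than in every homeostatic profile (4.28% of all genes) and 15 of 36 were so in myelin-DAM (3.94% of all genes), with none lower. Myelin-DAM was above amyloid-DAM in every profile for 5 of 38 (2.83% of all genes) and below it for 6 (3.47% of all genes).

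Ank, a transmembrane transporter of pyrophosphate and ATP, was the wider list's only gene called in the interaction. It was counted at 77.9 and 45.3 CPM in WT, 1109.5 and 966 CPM in 5xFAD, 309 and 366 CPM in Cnp-/- and 919 and 863 CPM in Cnp-/- 5xFAD libraries. The 4 groups of libraries did not overlap, and the share of all genes for which this holds was not computed. The 5xFAD effect was smaller in Cnp-/- than in Cnp wild-type mice by -2.54 ± 0.32 on the log2 scale (edgeR adjusted p = 0.0269). It was not called with replicate number as a block (edgeR adjusted p = 0.0505), without MyTE nuclei (0.0595) or with 51 nuclei drawn per library (0.0958). Without single libraries the value ranged from -3.19 to -2.33. The call was then lost without WT replicate 1, Cnp-/- replicate 1, either 5xFAD replicate or either Cnp-/- 5xFAD replicate.

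Finally, genes were ranked by the likeness of their log2 level to the mean of the 9 genes over 22 profiles of homeostatic, DAM and MyTE microglia, among 5764 genes with at least 100 UMIs. The most similar were Mamdc2 (Pearson's r = 0.953), Lilrb4a (0.949), Fnip2 (0.917), Plaur (0.911), Rftn1 (0.911), Fam20c (0.907), Apbb2 (0.901) and Rab7b (0.893). The profiles share libraries and differ in depth, so these values only describe the ranking. Mamdc2 had no UMI in the WT libraries and 21 to 183 UMIs in each mutant library.

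In the table of all cell types the class annotated as microglia holds 2472 nuclei, namely the 2291 described so far, macrophages included, and 181 without a subpopulation. Among the classes of that table, 7 of the 9 genes had their highest mean in this wider class. The genes were listed as genes of microglia, and the share of all genes with their highest mean there was not computed. Cd9 had means of 280.2 ± 106 CPM there and 221 ± 55.5 CPM in newly formed oligodendrocytes. Lpl was counted at 77.4 ± 49.7 CPM (n = 8 libraries) in the wider class, against 4.57 CPM in newly formed oligodendrocytes and 3.56 ± 1.17 CPM in neurons, the next highest. Igf1 stood at 151 ± 82.6 CPM in the wider class, whose 205 macrophages pooled had 313 CPM, and at 16.6 ± 2.25 CPM in neurons, where 8.89% of nuclei had a UMI at a median depth of 9105 UMIs. Fabp5 was highest in astrocytes, and by its mean Spp1 was highest in pericytes, for which 260 nuclei with 12 Spp1 UMIs were available. The median over libraries was 9.61 CPM in pericytes, with 217 CPM in the highest library, and 9.31 CPM in the wider class. Values of the wider class span all genotypes.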

How the data were processed

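Nuclei of 8 libraries (2 for each of 4 genotypes at 6 months) were sequenced by the 10x Genomics 3' assay. Per the submitters' processing notes and the study's methods, the authors aligned reads to mm10 with Cell Ranger 6.1.2, removed ambient transcripts with CellBender, filtered nuclei on genes and UMIs, and clustered and annotated them with Seurat. The deposited values are UMI counts per gene and nucleus, in 1 table of all cell types (61949 nuclei) and 1 of microglia and macrophages (2291 nuclei), whose sums matched the deposited totals in every nucleus. The deposited percentage of mitochondrial UMIs per nucleus was computed by the authors and was read only to describe the libraries. Whether intronic reads were counted and how doublets were treated is not given in the sources used here, and no doublet caller was run. Genes were matched by symbol.

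Counts were summed per library, the replicate, with at least 20 nuclei per profile. CPM are without TMM. Genotypes were compared two-sided by edgeR 4.0.16 in R 4.3.3 (filterByExpr with a minimum count of 10, TMM, quasi-likelihood, Benjamini-Hochberg threshold of 0.05), in models with 1 mean per group. A run on simulated data only checked the code. Its spread was set below that of the homeostatic counts, so it gives no error rate for these results. Subpopulations were described by ratios of summed counts with exact 95% intervals and by whether profiles overlapped, for genes with at least 10 UMIs. DESeq2 1.42.0 was an alternative, beside its size factors, no filter, a minimum count of 3, the replicate block, other sets of nuclei and each library left out. All 9 genes with a row are described; of the wider list those past the threshold in all microglia are named, and the 8 most similar genes by Pearson's r of log2 CPM (prior count of 2). The genes, lists and tests were chosen with earlier results of these data known.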

Additional observations from a re-analysis of the deposited data

Results flagged for a closer look

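Among 25 sets of profiles (each gene in homeostatic microglia, amyloid-DAM or myelin-DAM), 4 held a library far from the others, where chance marks about 1 set in 20 of continuous values. That rate does not apply to sets that are mostly at 0, in which a few UMIs stand apart. Lpl in homeostatic microglia was 58.0 CPM (10 UMIs) in 5xFAD replicate 2 and at most 24.8 CPM in the other 7 libraries. Spp1 in homeostatic microglia was 12.1 CPM (3 UMIs) in 5xFAD replicate 1 and at most 5.66 CPM in the others. Gpnmb in homeostatic microglia was 5.66 CPM (1 UMI) in Cnp-/- 5xFAD replicate 1 and 0 in the others. Fabp5 in amyloid-DAM was 20.7 CPM (3 UMIs) in Cnp-/- 5xFAD replicate 2 and 0 in the others. The homeostatic set spans 4 genotypes, and counts of 1 to 3 UMIs carry little weight.

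For Ank, the effect of 5xFAD in all microglia differed between Cnp-/- and Cnp wild-type mice by -2.54 on the log2 scale (interaction in edgeR, adjusted p = 0.0269). Over the alternatives this value ranged from -3.19 to -2.33 and its adjusted p from 8.29e-10 to 0.132.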

How the results depend on the processing

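For 5xFAD against WT, 4 genes were called without a filter, 1 with macrophages included, 1 with 51 nuclei per library (Lpl was lost), 3 by DESeq2 and 0 to 2 without single libraries (0 without WT replicate 1, 1 without 5xFAD replicate 2). For Cnp-/- against WT, 4 were called without a filter, 1 without MyTE nuclei (Lpl was lost at a log2 fold change of 4.99, adjusted p = 0.0598), 3 by DESeq2, 2 with macrophages included (Lpl and Cd9 at adjusted p = 0.0471) and 0 to 2 without single libraries (0 without WT replicate 1, 1 without Cnp-/- replicate 1). In the interaction DESeq2 called 1 and the fit without a filter 2 (Lpl and Igf1). Over all genes DESeq2 called 127, 280 and 56 in these comparisons, in this order, against 38, 157 and 4 by edgeR. In the other comparisons no alternative called any of the 9 genes. Genes called among all genes ranged from 5 to 236 (38 as reported) and from 23 to 396 (157), and without a filter were 28 and 60 for Cnp-/- 5xFAD against 5xFAD and Cnp-/-, 131 in the interaction, 60 and 27 in homeostatic microglia and 10 and 11 in DAM. The causes were not tested.

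With the replicate block, 2 genes were called in 5xFAD and 3 in Cnp-/- against WT (Cd9 was added, edgeR adjusted p = 0.0421), and none elsewhere. Replicate numbers did not pair the samples (correlations of deviations from -0.034 to 0.082), and the block lost the Ank interaction (adjusted p = 0.0505).

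Profiles of at least 5 nuclei left 2, 3 and 1 genes higher throughout for amyloid-DAM over homeostatic, myelin-DAM over homeostatic and myelin-DAM over amyloid-DAM, and thinning left 6, 5 and 1 (Ccl6, Cd9 and Spp1 were lost). The mean over nuclei lost Ccl6 in the first. For homeostatic microglia that limit added no profile and gave no other value.

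With macrophages included, Apoe in Cnp-/- against WT turned to -0.95 and Igf1 in Cnp-/- 5xFAD against 5xFAD to -0.033 (log2). With equal nuclei, Cd9 and Lpl in Cnp-/- 5xFAD against Cnp-/- turned to -0.030 and -0.00012. Without single libraries, where a genotype may rest on 1 library assumed to vary like the others, the direction turned for small, uncalled changes. In all microglia of Cnp-/- 5xFAD mice Cd9 ranged from -0.060 to 0.36, Igf1 from -0.053 to 0.18 and Ccl6 from -0.21 to 0.77 against 5xFAD, and Cd9 from -0.21 to 0.55 against Cnp-/-. The Cnp effect on homeostatic Cd9 ranged from -0.10 to 0.41. In amyloid-DAM, Spp1 ranged from -0.51 to 0.61, Gpnmb from -0.25 to 0.48, Itgax from -0.50 to 0.13, Lpl from -0.030 to 0.32 and Igf1 from -0.15 to 0.30. In myelin-DAM, Spp1 ranged from -0.72 to 0.77, Gpnmb from -0.13 to 0.094, Cd9 from -0.28 to 0.81 and Igf1 from -0.25 to 0.042.

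With 2 libraries per genotype, few WT microglia and as few as 0 UMIs per profile, Cst7, Spp1, Ccl6 and Fabp5 allow no firm statement on genotype.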

Other observations

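Among all nuclei, 181 annotated as microglia had no subpopulation, since they were absent from the microglial table. Their summed level of the 9 genes was 368 and 139 CPM in the WT, 220 and 434 CPM in the Cnp-/-, 411 and 522 CPM in the 5xFAD and 193 and 231 CPM in the Cnp-/- 5xFAD libraries. The mutant libraries were thus not set apart from WT as they were in the annotated microglia (160 to 260.5 CPM in WT and 705 to 1070 CPM in the others). These 9 to 31 nuclei per library held 43297 to 172767 UMIs, against 88299 to 702785 UMIs in 51 to 435 annotated microglia, so they were deeper. The part of depth and of other cell types in these levels was not tested.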
